A study of Mus musculus with 14 samples.

Results

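This report describes 100 genes of mouse visual cortex whose RNA levels followed Fos, Arc and Npas4 most closely from mouse to mouse. The members were chosen from their own measured values. Normalized read counts were put on a log2(value + 1) scale, and a score was formed in each mouse as the mean of Fos, Arc and Npas4 after each was scaled to a z value over the 14 mice. Genes with a mean of at least 50 were ranked by Pearson's r to the score. Fos, Arc, Npas4 and genes whose symbols begin with any of 26 prefixes, well-known activity-regulated families among them, were taken out first. Of 12874 genes in the table, 7334 had a mean of at least 50, 7054 of these were ranked after the removal, and the first 100 are the members. Every correlation to the score is therefore a description of how the members were found, without a test.

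The mice were males of wild-type genotype from a 5xFAD breeding colony on a B6SJL background, and the tissue was visual cortex. 7 mice received 20Hz for 1 h and 7 received 40Hz for 1 h, where the labels give the frequency and duration without describing the stimulus or when tissue was taken after it. The 20Hz mice were 5 months old in replicates 1 to 3 and 4 months old in replicates 4 to 7. The 40Hz mice were 5 months old in replicates 2 to 5 and 4 months old in replicates 1, 6 and 7. Each library came from a separate animal number, and no mouse without stimulation was analysed here, so all levels are relative among stimulated mice.

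When a neuron fires, calcium entry and kinase signalling activate transcription factors already present on the promoters and enhancers of immediate-early genes, among them CREB, SRF and MEF2. Fos and Npas4 encode transcription factors made within minutes of activity, and Arc encodes a protein that controls the removal of AMPA receptors from synapses. Their protein products and the same signals then drive delayed genes, which encode secreted factors, kinases, receptors and regulators of synapses. In visual cortex this programme is classically evoked by light. A separate pathway that appears among the members makes cholesterol from acetyl-CoA through mevalonate and squalene, and is controlled by the transcription factor SREBP2, the product of Srebf2.

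The 14 libraries held between 6108717 and 13744933 reads recovered from the normalized counts. 40Hz replicate 7 was the shallowest library and stood apart with the lowest score, -1.98, where the next lowest mice had -1.11 and -1.06. It was the lowest mouse in 55 of the 100 members, and without it 53 of the 100 genes would again be among the first 100. Marker levels were read beside the tissue label. All 24 excitatory layer markers and all 14 inhibitory neuron markers in the table had a mean of at least 1. Their summed levels were 13788 to 18335 and 10070 to 13199 in the 20Hz mice, and 13942 to 17546 and 9870 to 13251 in the 40Hz mice. All 6 choroid plexus and all 10 dentate gyrus markers in the table also had such a mean, so presence alone cannot check the label. Choroid plexus markers summed to 317 to 30498.5 at 20Hz and 308 to 390 at 40Hz. Dentate gyrus markers summed to 5495 to 8204 at 20Hz and 4654 to 6367 at 40Hz. In bulk tissue, fewer cells of a type and less RNA per cell cannot be told apart.

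Fos ranged from 489 to 1636 normalized counts in the 20Hz mice, with a median of 1415, and from 470 to 1533 in the 40Hz mice, with a median of 729. Arc ranged from 256 to 870 with a median of 427 at 20Hz, and from 108 to 873 with a median of 510 at 40Hz. Npas4 ranged from 305 to 629 with a median of 457 at 20Hz, and from 222 to 557 with a median of 428 at 40Hz. The ranges of the frequencies overlapped for each gene, and 40Hz replicate 7 was the lowest of the 14 mice for all 3. The highest mouse was 8.06-fold above the lowest for Arc, 3.48-fold for Fos and 2.84-fold for Npas4. The score ran from -1.06 to 1.15 at 20Hz, with a median of 0.39, and from -1.98 to 0.70 at 40Hz, with a median of 0.23. The 5 mice of lowest score were 40Hz replicates 7, 3 and 2 and 20Hz replicates 3 and 2, and the highest was 20Hz replicate 4.

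**Figure D1:**
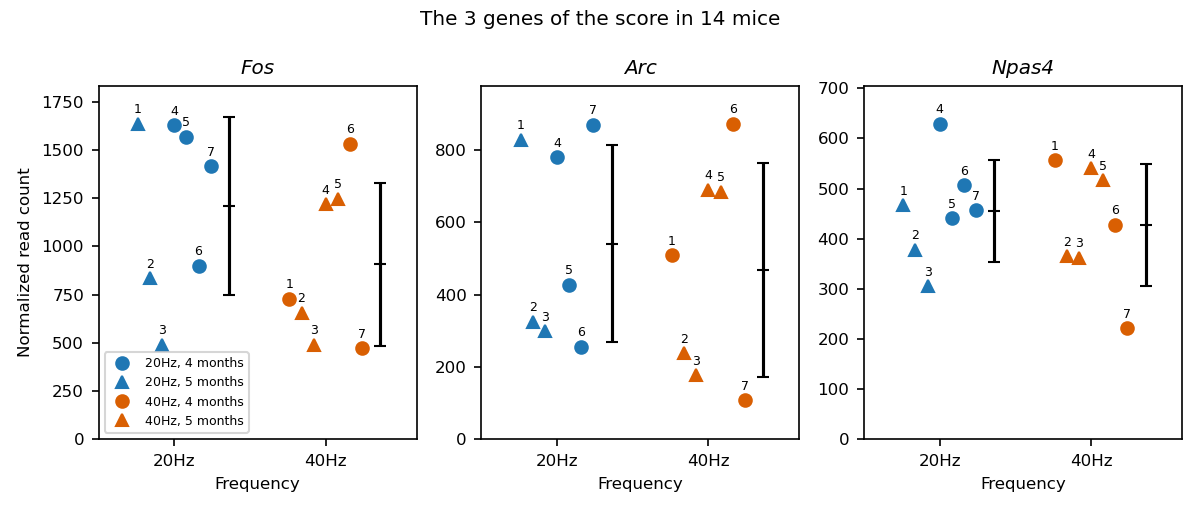
Normalized read counts of Fos, Arc and Npas4 in each of 14 mice (points, numbered by replicate, shaped by age), by frequency, with the mean and SD of 7 mice beside each group (bars). The groups overlap for all 3 genes, and 40Hz replicate 7 is the lowest mouse in each panel.

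The member with the highest correlation was Sqle (squalene epoxidase, a late control point of cholesterol synthesis), with r = 0.95. The median member had r = 0.77. The places at the edge of the list were close together: Gla (0.712), Polb (0.712) and Moap1 (0.709) were the last inside, and Lonp2 (0.708), Pou3f3 (0.702) and Ern1 (0.700) were the first outside. The prefix rule took out 20 genes that would otherwise have stood above the 100th member, led by Nr4a1 (0.98), Dusp4 (0.96), Pcsk1 (0.92), Fosl2 (0.91), Egr2 (0.91), Spry2 (0.90), Junb (0.90) and Egr4 (0.89). The members are thus what remained beside the best-known activity genes, and 11 of them stand on the lists of rapid or delayed activity genes used here.

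The members differed widely in level and in how far they varied. Their mean levels ran from 50.2 to 9641 normalized counts with a median of 442, and 13 had a mean under 100. The ratio of the highest to the lowest mouse had a median of 1.78, against 1.62 over all 7334 genes with a mean of at least 50. It reached at least 2 in 37 members and at least 3 in 4, and stayed under 1.5 in 25. The change of a member per unit of score had a median of 0.20 on the log2 scale and ran from 0.07 to 0.50. The members at both ends of the spread, picked out here after their values were seen, were Masp2 (5.30-fold) and Gabbr1 (1.24-fold). Masp2 overlaps Tardbp in the RefSeq annotation, and since the labels do not say whether counting used the strand, reads of the pair cannot be told apart.

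**Figure D2:**
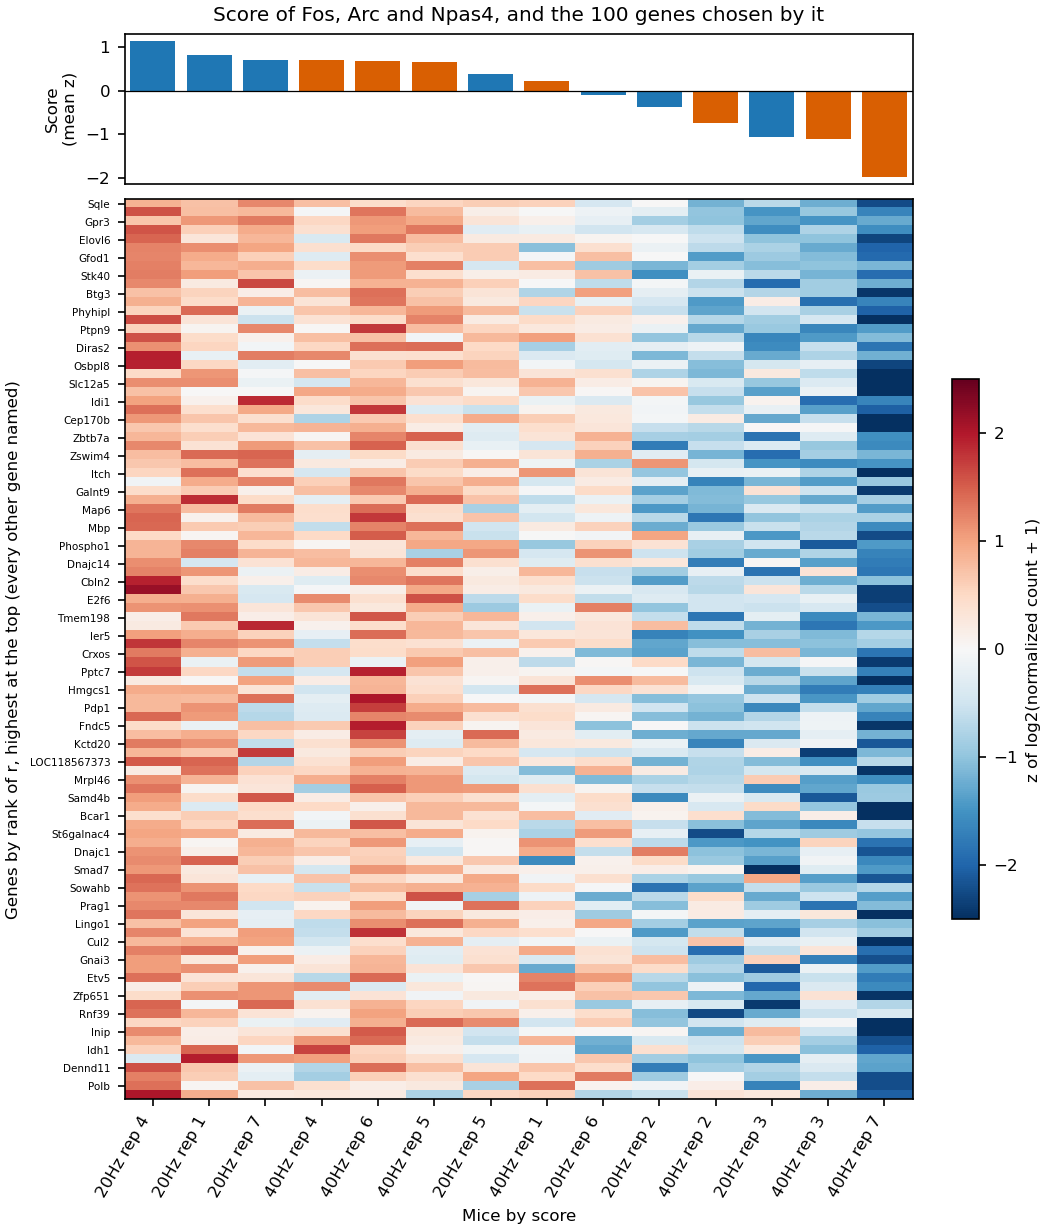
Upper panel: score (mean z) of each mouse, ordered from highest to lowest, blue for 20Hz and orange for 40Hz. Lower panel: z of log2(normalized count + 1) for the 100 members (rows, by rank of r, alternate genes named), which were chosen to follow the score; the mouse at the right edge, 40Hz replicate 7, is the lowest in 55 of them.

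The promoters of the members are shown first, because the sequence was not used by the rule. RefSeq windows of the GRCm38.p6 build, from 250 bases before to 50 bases after a gene's start, were found by symbol for 81 of the 100 members, in 108 windows; Sqle, Gfod1, Trib1 and the score gene Arc were among those without a window. The full cyclic-AMP response element TGACGTCA, the palindrome bound by CREB, was present in 7 of the 81 members (8.64%), against 3.63% of 5723 genes with a mean of at least 50 and 2.03% of all 27025 genes with a window. By window the shares were 6.48%, 3.08% and 1.79%. The 7 members were Dio2, Tmem198, Clstn3, Hhip, Plk2, Arl4d and Moap1. The 6 whose match lay before the start are printed 5′ to 3′ along the gene's own strand, with the element in capitals.
Dio2 (chr12:90739086-90739173, minus strand): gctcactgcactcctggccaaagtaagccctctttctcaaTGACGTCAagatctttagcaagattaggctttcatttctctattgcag
Plk2 (chr13:110394942-110395029, plus strand): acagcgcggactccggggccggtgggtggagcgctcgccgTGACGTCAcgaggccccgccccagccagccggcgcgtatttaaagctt
Arl4d (chr11:101665475-101665540, plus strand): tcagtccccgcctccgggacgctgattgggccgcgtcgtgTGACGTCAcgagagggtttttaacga
Tmem198 (chr1:75479465-75479531, plus strand): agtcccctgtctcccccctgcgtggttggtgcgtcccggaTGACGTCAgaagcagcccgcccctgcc
Hhip (chr8:80058036-80058123, minus strand): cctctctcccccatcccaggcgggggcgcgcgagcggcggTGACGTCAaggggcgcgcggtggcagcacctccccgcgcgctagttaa
Moap1 (chr12:102743662-102743717, minus strand): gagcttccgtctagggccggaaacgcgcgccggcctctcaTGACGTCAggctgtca

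In these 6 genes the element began between 16 (Moap1) and 95 (Dio2) bases before the start. For comparison, the window of Fos holds no full element but holds TGACG, the shorter core contained in it, 66 bases before the start, shown in capitals.
Fos (chr12:85473784-85473868, plus strand): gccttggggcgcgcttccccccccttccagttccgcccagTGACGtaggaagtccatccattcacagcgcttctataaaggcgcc

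The shorter core TGACG, which every full element also contains, was in 34.3% of member windows, 30.2% of windows of genes with a mean of at least 50 and 20.8% of all windows. The AP-1 site TGANTCA, bound by dimers of FOS and JUN proteins, was in 7.41% of member windows, 4.67% of windows of genes with a mean of at least 50 and 7.81% of all windows. TCGTG, a core recognised by NPAS4, was in 14.8%, 21.6% and 16.0%. The CArG box bound by SRF was in 2.78%, 1.42% and 1.63%, and the NF-kB site in 2.78%, 5.41% and 4.51%. The member windows were also richer in G and C, with a median of 65.7% against 61% and 52.7%, and the part of this in the motif shares was not tested. All searches covered both strands. A match describes letters in a window and not a bound site, and a window without a match says nothing about the factor.

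The rapid activity list held 36 genes with a mean of at least 50, of which 19 were not removed, and 6 of these were members. Trib1 encodes a pseudokinase that directs proteins to degradation. It ranged from 847 to 1597 normalized counts at 20Hz, with a median of 1024, and from 846 to 1597 at 40Hz, with a median of 1294. Tiparp, which attaches single ADP-ribose units to proteins, ranged from 447 to 935 at 20Hz, with a median of 605, and from 447 to 881 at 40Hz, with a median of 617. For both genes the groups spanned nearly the same range, 20Hz replicate 4 was the highest mouse, and 20Hz replicate 3, 40Hz replicate 7 and 40Hz replicate 3 were among the 4 lowest.

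Ier5, an immediate early response gene, ranged from 3796 to 7120 at 20Hz, with a median of 6409, and from 3935 to 7765 at 40Hz, with a median of 5337. Plk2, a polo-like kinase induced by activity that weakens overactive synapses, ranged from 3996 to 5247 with a median of 4809 at 20Hz, and from 3875 to 5332 with a median of 4300 at 40Hz. Arl4d, a small GTPase of the ARF family, ranged from 552 to 1163 with a median of 655 at 20Hz, and from 532 to 1258 with a median of 907 at 40Hz. Ier5 and Plk2 were highest in 40Hz replicate 6 and Arl4d in 40Hz replicate 5. Mcl1, which protects cells from apoptosis, varied less, from 3826 to 5420 over the 14 mice, a ratio of 1.42. Ier5 and Plk2 were not lowest in 40Hz replicate 7, and their r to the score rose from 0.77 to 0.84 and from 0.75 to 0.82 without that mouse, whereas that of Arl4d went from 0.73 to 0.68.

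The delayed and secondary activity list held 33 genes with a mean of at least 50, of which 23 were not removed, and 5 were members. Gpr3, a receptor that raises cyclic AMP without a ligand, had r = 0.92. It ranged from 279 to 635 at 20Hz, with a median of 465, and from 264 to 595 at 40Hz, with a median of 439. Its lowest mouse was 40Hz replicate 3, and its r without 40Hz replicate 7 was 0.95. Midn, whose product midnolin carries immediate-early proteins to the proteasome, ranged from 49.1 to 133 with a median of 100.4 at 20Hz, and from 51.5 to 146 with a median of 77.1 at 40Hz. Cdkn1a, the cell-cycle inhibitor p21 and also a glucocorticoid-responsive gene, ranged from 166 to 383 with a median of 254 at 20Hz, and from 150 to 337 with a median of 182 at 40Hz. The groups overlapped for all 3 genes. The other delayed members were the kinase gene Pim1, at 28.4 to 78.0 over the 14 mice, and Lingo1, a membrane protein that restrains axon growth and myelination, at 2281 to 3586.

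Prkar2a, a regulatory subunit of the cyclic-AMP-dependent kinase, was the single member among 19 CREB and cyclic-AMP genes (5.26%, against 1.42% of all ranked genes), and it ranged from 3757 to 5174. Of those 19 genes 6 had r above 0.5, and of 18 MAPK genes 4 (22.2%), against 8.34% of all genes with a mean of at least 50. The MAPK share was not particular to signalling lists: 3 of 12 proteasome regulator and ubiquitin genes (25%) and 5 of 23 vesicle release genes (21.7%) lay above 0.5. Of 17 calcium signalling genes 0 did. No member came from the lists of MAPK signalling, calcium signalling, glutamate receptors, vesicle release, protein folding, clock, NF-kB, ubiquitin, cytoskeleton or glycolysis genes.

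Among the lists used here, cholesterol synthesis had the largest share of members outside the activity lists, 5 of 15 genes (33.3%) against 1.42% of all ranked genes. The lists were chosen with earlier results of these data known, so this share is a description without a test. The values of 4 of them are given here. Hmgcs1, which acts early in the pathway and makes HMG-CoA, ranged from 290 to 422 at 20Hz, with a median of 381, and from 266 to 454 at 40Hz, with a median of 352. The groups overlapped, and the highest mouse was 40Hz replicate 1.

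Idi1, which isomerises the isoprenoid unit, ranged from 2848 to 3847 with a median of 3028 at 20Hz, and from 2312 to 3284 with a median of 2920 at 40Hz. Sqle ranged from 1191 to 1437 with a median of 1355 at 20Hz, and from 1019 to 1372 with a median of 1331 at 40Hz. Cyp51, the lanosterol demethylase, ranged from 2624 to 3575 with a median of 3018 at 20Hz, and from 2043 to 3067 with a median of 2659 at 40Hz. In Sqle, Idi1 and Cyp51 the 3 lowest mice were 40Hz replicates 7, 3 and 2, and 20Hz replicate 7 was the highest. Without 40Hz replicate 7 the correlations to the score were 0.92 for Sqle, 0.75 for Idi1, 0.74 for Cyp51 and 0.68 for Hmgcs1.

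The other 10 genes of the list lay below the members. Fdps, which makes farnesyl diphosphate, had r = 0.69, Sc5d 0.66, Mvd 0.56 and Nsdhl 0.50. Srebf2 had 0.47 and entered the first 100 when 40Hz replicate 7 was left out. The member Hmgcs1 left the first 100 without that mouse, and also by Spearman's rho. Sqle, Idi1 and Cyp51 stayed in both cases. Fdft1, which makes squalene one step before Sqle, was the exception with a negative value, -0.14. The list as a whole had a median r of 0.56, and 8 of 15 (53.3%) lay above 0.5.
Hmgcs1 is shown for TCACNCCAC, a core of the sterol regulatory element (in capitals, 137 bases before the start), which was searched after the cholesterol genes had been seen.
Hmgcs1 (chr13:119690174-119690262, plus strand): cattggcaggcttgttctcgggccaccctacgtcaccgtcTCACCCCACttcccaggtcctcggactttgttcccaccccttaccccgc

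This core was in the windows of 3 members, Hmgcs1, Tiparp and Gnai3 (3.70% of 81), against 1.29% of genes with a mean of at least 50 and 1.44% of all genes. Idi1 and Cyp51 have windows without it, and Sqle has no window.

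**Figure D3:**
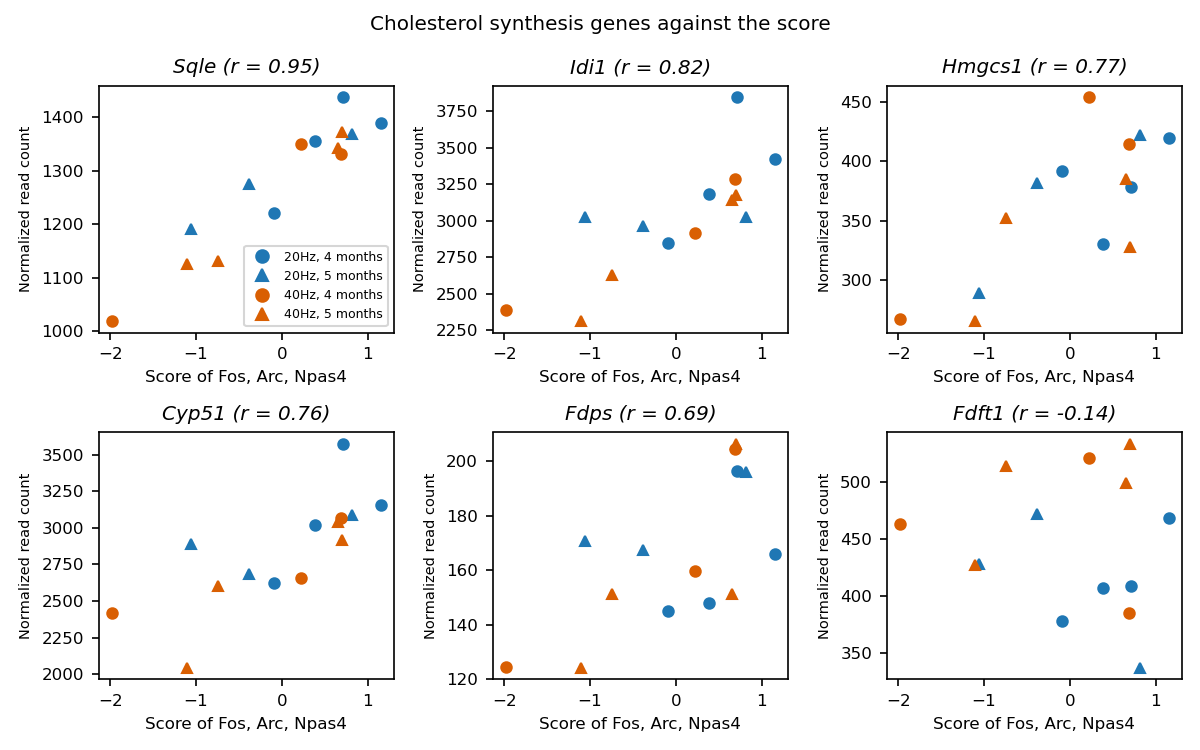
Normalized read counts of 6 cholesterol synthesis genes (y axes, which do not start at 0) against the score of Fos, Arc and Npas4 (x axis) in 14 mice, coloured by frequency and shaped by age. Sqle, Idi1, Hmgcs1 and Cyp51 are members and rise with the score by choice (r from 0.76 to 0.95), Fdps lies below the members (r = 0.69), and Fdft1 does not rise (r = -0.14).

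Other members stood high in the ranking. Irs2, the adaptor of insulin and IGF receptors, had r = 0.93 and ranged from 3077 to 6200 with a median of 4457 at 20Hz, and from 2956 to 5832 with a median of 4284 at 40Hz. Dio2, the deiodinase that makes active thyroid hormone and is found in brain mainly in astrocytes, ranged from 7624 to 12906 with a median of 11040 at 20Hz, and from 5576 to 10979 with a median of 7887 at 40Hz. Elovl6, which lengthens fatty acids, ranged from 3972 to 5229 with a median of 4555 at 20Hz, and from 3441 to 5155 with a median of 4263 at 40Hz. The 3 genes were highest in 20Hz replicate 4 and lowest in 40Hz replicate 7, and the groups overlapped. No gene of the astrocyte marker list was a member, and the 11 astrocyte markers ranked had a median r of -0.13.

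Among the other genes of the first 15, Gfod1 had r = 0.89 and ranged from 1331 to 2171 over the 14 mice. Stk40, a pseudokinase related to Trib1, ranged from 28.4 to 69.4, Btg3, an antiproliferative factor, from 90.5 to 197, and Zswim6 from 766 to 1487. Narrower ranges were seen for Spty2d1, a histone chaperone (981 to 1344), Phyhipl (559 to 836) and the tyrosine phosphatase Ptpn9 (1821 to 2450). Mbp, a major protein of myelin, was the single oligodendrocyte marker among the members. It ranged from 5862 to 8398 at 20Hz and from 5611 to 8335 at 40Hz, with r = 0.79, where the 11 oligodendrocyte markers ranked had a median r of 0.26.

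Members with known synaptic roles were picked out after their values were seen. Slc12a5, the chloride exporter of neurons, ranged from 789 to 1105 at 20Hz and from 598 to 1053 at 40Hz. Adora1, the inhibitory adenosine receptor, ranged from 948 to 1185 and from 880 to 1245, and Gabbr1, a subunit of the GABA-B receptor, from 1746 to 1979 and from 1617 to 2007. All 3 were lowest in 40Hz replicate 7, and their r went from 0.83 to 0.71, from 0.78 to 0.64 and from 0.82 to 0.69 without it. Cbln2 and Clstn3, organisers of synapses, were highest in 20Hz replicate 4, at 427 and 2283, and their r without 40Hz replicate 7 was 0.80 and 0.68.

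The members were also compared with each other. The median correlation over all 4950 pairs was 0.65, and 0.07 once the part of each gene explained by the score was removed. For the 5 cholesterol members the median went from 0.71 to -0.07, and for pairs of a cholesterol and a listed activity member from 0.66 to -0.04. For the 11 listed activity members it went from 0.77 to 0.29, the least reduced of these sets. With the score removed, single pairs spread widely around these medians. They ran from -0.62 to 0.88 for cholesterol pairs, -0.71 to 0.56 for mixed pairs and -0.42 to 0.77 for activity pairs. No such values over all ranked genes were set beside them, and the differences between the sets were not tested. All points share the same 14 libraries, and the choice of members fixes the first value in each pair.

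The rule was also applied within the mice of 1 frequency, and the genes it chose were looked at in the mice not used. These lists are not the 100 members described here. They share 27 genes with them when chosen at 20Hz, 39 when chosen at 40Hz, and 17 when chosen at 40Hz without replicate 7. The 100 genes chosen in the 20Hz mice alone had a median r of 0.40 to the score in the 40Hz mice, and 41 exceeded 0.5, against a median of -0.01 and 18.6% of all ranked genes. Without 40Hz replicate 7 the median was 0.29 and 36 exceeded 0.5, against 0.06 and 23.4%. The 100 genes chosen in the 40Hz mice had a median r of 0.24 in the 20Hz mice, with 33 above 0.5, against 0.01 and 15.7%. When 40Hz replicate 7 took no part in the choice, these values became 0.09 and 19, close to the background. The lists from the 2 frequencies shared 11 genes, and 4 without that mouse. Sqle was on both lists in each case. These values are descriptions over 6 or 7 mice each.

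**Figure D4:**
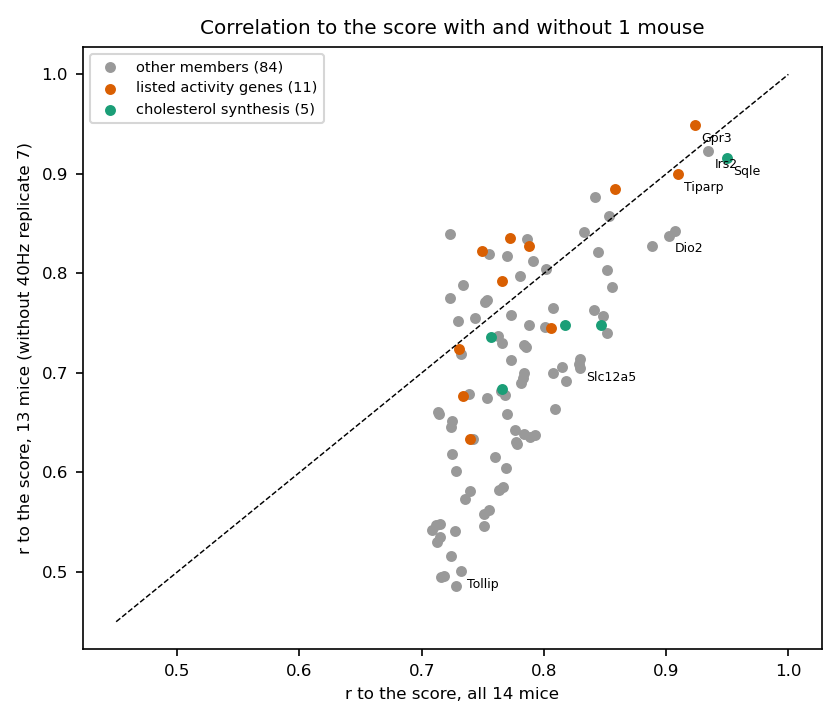
Pearson's r of each of the 100 members to the score over 14 mice (x axis) and over 13 mice without 40Hz replicate 7 (y axis); the dashed line marks equal values. Most members lie below the line, with a median of 0.77 on the x axis and 0.71 on the y axis, and Gpr3 and several listed activity genes lie above it.

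In all, 39 members remained among the first 100 whichever single mouse was left out. A smaller set of 17 remained under all 27 other settings tried, namely Diablo, Dio2, Diras2, Elovl6, Gfod1, Gpr3, Idi1, Irs2, Phyhipl, Ptpn9, Ran, Rnd3, Spty2d1, Sqle, Tiparp, Trib1 and Zswim6. At 20Hz alone all 100 members had a positive r to the score, against 50.6% of all ranked genes. Their median was 0.74 and their lowest value 0.10, and 87 exceeded 0.5, against 15.7% of all ranked genes. At 40Hz alone all 100 exceeded 0.5, against 18.6% of all ranked genes, with a median of 0.83. The same mice were used to choose the members, so these values follow largely from the choice.

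No member was called between 40Hz and 20Hz by limma at an adjusted p of 0.05 (0 of 100), and the background over all 10689 genes tested was 0%. Without adjustment, 5 members had p under 0.05, against 4.87% of all genes, so the members' share was at the background. By direction alone, 89 of 100 members were lower at 40Hz, against 51.2% of all genes. The median difference was -0.10 on the log2 scale, against -0.00 for all genes, and smaller than the 0.18 SD between mice of one frequency in the median deviation of the members. Because the members follow a single score by choice, their directions are not independent of each other. The count joins both ages, and the score by frequency and age is given below. Without 20Hz replicate 4 the median was -0.06. Without 40Hz replicate 7 it was -0.04 and 71 were lower, and without 40Hz replicates 1 to 3 the median was -0.03 and 66 were lower. The ranges of the 2 frequencies overlapped for all 100 members, and 0.0374% of all genes had ranges that did not overlap.

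Phospho1, a phosphatase of phosphocholine, had the smallest p of the members, with a mean normalized count of 279.5 ± 25.3 in the 20Hz mice and of 233 ± 42.2 in the 40Hz mice (SD, n = 7 in each group). Its difference was -0.28 ± 0.11 (SE) on the log2 scale, with a limma adjusted p of 0.919. Dio2 differed by -0.37 ± 0.17, Gfod1 by -0.20 ± 0.10, Gnai3, an inhibitory G protein subunit, by -0.13 ± 0.06, and Syna, a gene of retroviral origin, by -0.33 ± 0.16, with the same limma adjusted p. Of the members with higher values at 40Hz, those with the smallest p were Arl4d (0.12 ± 0.22), Tcaf1 (0.06 ± 0.11), Kdm6b, a histone demethylase (0.07 ± 0.14), E2f6 (0.05 ± 0.15) and Trib1 (0.06 ± 0.20), each with an SE larger than the difference. The score genes themselves differed by -0.44 ± 0.36 (Fos), -0.38 ± 0.52 (Arc) and -0.12 ± 0.20 (Npas4), and none was called.

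These 4 cholesterol members had differences of -0.17 ± 0.09 (Idi1), -0.17 ± 0.09 (Cyp51), -0.10 ± 0.12 (Hmgcs1) and -0.10 ± 0.08 (Sqle). Of the 17 genes of that list tested by limma, 0 were called and 13 had lower values at 40Hz, with a median of -0.10. Of the rapid list 0 of 43 were called and 32 had lower values, and of the delayed list 0 of 40 were called and 35 had lower values, with medians of -0.12 and -0.13. Over all genes tested, 51.2% had lower values. Many genes of these lists follow the same score, so their directions are not independent of each other either. The list counts were not computed without 40Hz replicate 7. Without adjustment 2 cholesterol, 3 rapid and 2 delayed genes had p under 0.05, against 4.87% of all genes. The 2 cholesterol genes differed in opposite directions, Ebp by -0.22 ± 0.09 and Fdft1 by 0.21 ± 0.09. The edgeR quasi-likelihood test on the recovered reads also called 0 members and 0 genes, with 3 members at an unadjusted p under 0.05, against 4.93% of all genes. DESeq2 called 0 members and 3 genes, with 5 members at an unadjusted p under 0.05, against 5.17% of all genes.

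**Figure D5:**
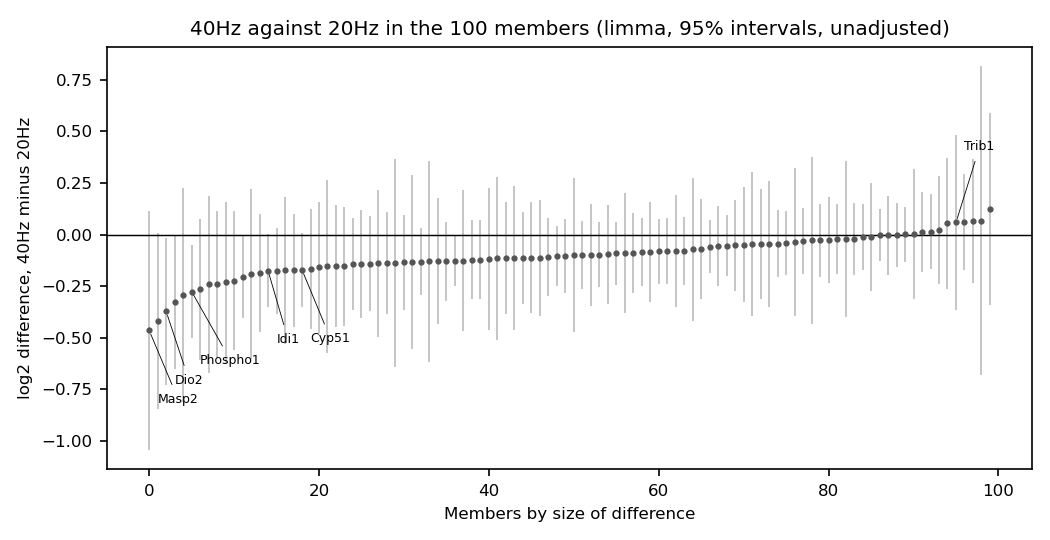
Difference between 40Hz and 20Hz on the log2 scale for each of the 100 members, ordered by size (points), with 95% intervals from limma that are not adjusted for the number of genes (lines). Most points lie below 0 (89 of 100), and most intervals cross it.

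Age gave a like picture. No member was called between 5 and 4 months by limma in a fit with frequency and age (background 0%), 7 members had an unadjusted p under 0.05 against 7.86% of all genes, and 77 had lower values at 5 months against 50% of all genes. The median difference was -0.07 on the log2 scale. On the recovered reads edgeR and DESeq2 called 0 members as well, with 5 and 8 at an unadjusted p under 0.05, against 7.36% and 7.68% of all genes. The median went to -0.03 without 20Hz replicate 3, -0.03 without 40Hz replicate 6, -0.01 without 40Hz replicates 1 to 3 and -0.15 without 40Hz replicate 7, and its sign turned with the replicate number as a block, to 0.02. The smallest p belonged to Slc36a1, an amino acid transporter of lysosomes, with a mean of 5857 ± 509 in the younger and of 5196 ± 394 in the older mice (normalized counts, SD, n = 7 in each group), a difference of -0.17 ± 0.07 (SE) with a limma adjusted p of 0.551. Rnf39 (-0.40 ± 0.17) and Prkar2a (-0.16 ± 0.07) followed, both with a limma adjusted p of 0.588. Among members with higher values at 5 months the smallest p belonged to Idh1, the cytosolic isocitrate dehydrogenase (0.15 ± 0.12), E2f6 (0.19 ± 0.15) and Tollip (0.16 ± 0.17). The age groups overlapped for all 100 members (0.103% of all genes did not overlap). The product of frequency and age was called by limma for 0 members (background 0%), with 2 at an unadjusted p under 0.05 against 3.78%. By direction alone, 7 of 100 members had a negative product, against 49.4% of all genes, and the median was 0.14 against 0.00. At 4 months the mean score was 0.54 ± 0.52 at 20Hz (SD, n = 4) and -0.35 ± 1.43 at 40Hz (n = 3, among them replicate 7). At 5 months it was -0.21 ± 0.95 at 20Hz (n = 3) and -0.12 ± 0.94 at 40Hz (n = 4).

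Levels of other cell types were set beside the score as 12 relations over the 14 mice, and none passed a Benjamini-Hochberg threshold of 0.05. Meningeal markers came closest, with r = -0.58 (permutation p = 0.029, adjusted 0.205) and rho = -0.73 (permutation p = 0.00446, adjusted 0.0535), and r = -0.66 without 40Hz replicates 3 and 7, the mice farthest from the median score. All 10 meningeal genes ranked had a negative r, 0 of the 11 in the table had a mean under 1, and their summed level was 2421 to 6558 at 20Hz and 3531 to 6129 at 40Hz. Red blood cell genes had r = -0.57 (permutation p = 0.0341, adjusted 0.205) and rho = -0.63 (permutation p = 0.018, adjusted 0.076), with r = -0.69 without the same mice. Their 4 genes summed to 3100 to 7039 at 20Hz and 3185 to 7665 at 40Hz, and none had a mean under 1. Inhibitory neuron markers had r = 0.50 (permutation p = 0.0704, adjusted 0.226) and rho = 0.63 (permutation p = 0.019, adjusted 0.076), with r = 0.67 without those mice. Microglial markers, of which 1 of 10 ranked had a positive r, had r = -0.37 (permutation p = 0.185, adjusted 0.402) and rho = -0.34 (permutation p = 0.239, adjusted 0.477), with r = -0.69 without those mice. Their 14 genes summed to 5162 to 7448 at 20Hz and 5467 to 6883 at 40Hz. Endothelial and pericyte markers, of which 1 of 7 ranked had a positive r, had r = -0.49 (permutation p = 0.0755, adjusted 0.226) and rho = -0.49 (permutation p = 0.0798, adjusted 0.192), with r = -0.40 without those mice. Their 14 genes summed to 6919 to 9094 at 20Hz and 7930 to 10857 at 40Hz. The part of these markers in the members' correlations was not tested. Library depth had r = 0.08 (permutation p = 0.794, adjusted 0.929) and rho = -0.31 (permutation p = 0.287, adjusted 0.493) to the score, and r = -0.37 without the same mice.

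Some members carry limits of counting. 7 of the 99 members matched in the RefSeq gene table overlap another gene of the file there, among them Masp2, Diablo, Snap29 and Moap1. Reads of Ppp1ccb, a near copy of a phosphatase gene, and of the zinc finger genes Zfp992 and Zfp651 may be shared with related genes. Crxos is named as an opposite-strand transcript, but it overlaps 0 other genes in the RefSeq gene table. 2 further members are predicted or unnamed loci.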

How the data were processed

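RNA of visual cortex from 14 mice was sequenced. The authors deposited 1 table of normalized counts, a signal value per gene and mouse. GRCm39 and DESeq2 appear in the submitters' processing notes, without a version or role for DESeq2. The aligner, counter, annotation and strandedness were not stated in the sources used here. Dividing the deposited signal by its smallest step gave whole reads for 100% of values (tolerance 0.01), 6108717 to 13744933 per mouse, so levels near the minimum mean rest on few reads. No deposited column lacked a sample (0).

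The members and all gene lists were chosen with earlier results of these data known. limma 3.58.1 (trend, robust) was run on log2(value + 1) for genes with a mean of at least 10, with Benjamini-Hochberg adjustment at 0.05, and the fit script was tested on simulated data. Frequency was fitted alone, and age together with frequency. edgeR 4.0.16 and DESeq2 1.42.0 on recovered reads, other pseudocounts, filters, scalings, covariates and omitted mice were alternatives. Correlations across mice used 100000 permutations, two-sided. The genes named were Fos, Arc and Npas4, the first 15 members, 3 on each side of the edge, members on a list or with a full CRE, the smallest p values (5 in each direction for frequency, 3 for age), and up to 8 removed genes, with others named as chosen after their values were seen. The values of 1 member are not reported here. R 4.3.3 and Python 3.11.15 were used.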

Additional observations from a re-analysis of the deposited data

Results flagged for a closer look

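For each member, each score gene and the score itself, the mice of each frequency were searched for one that lay far from the other 6, by Dixon's gap ratio (the gap of an extreme mouse to its nearest neighbour divided by the range of the group). 13 of 208 groups (6.25%) passed the 95% level, where chance flags about 1 in 20, but the groups share the same mice and the members were chosen on these values, so the share is a description. 7 of the 13 were low values of 40Hz replicate 7, the mouse with the lowest score, which the choice of members favours. Tollip, an adaptor that dampens Toll-like receptor signalling, had the largest ratio, 0.833, with 87.0 normalized counts in that mouse and 185 to 215 in the other 40Hz mice. The same mouse was low in Bcar1 (ratio 0.773, 71.0 against 129 to 154), Polb (0.660), Cul2 (0.649), Slc12a5 (0.634), Sbk1 (0.597) and, in the 40Hz group, Gabbr1 (0.572).

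At 20Hz, replicate 3 was low in Smad7, an inhibitor of TGF-beta signalling (ratio 0.744, 188 against 340 to 416), Ppp1ccb (0.680), Gabbr1 (0.642) and Zfp651 (0.630). Replicate 2 was low in Galnt9 (0.747, 551 against 776 to 872). Replicate 4 was high in Epb41l1 (0.578, 123 against 69.4 to 88.6), the single high value.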

How the results depend on the processing

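Under the alternatives tried, 590 values were labelled the same as in the main setting and 14 were not. A median was the same if it moved by less than the spread between mice, and a count if it stayed within a fixed factor. That spread was 0.18 for frequency and for age, larger than the medians themselves (-0.10 and -0.07). A median could therefore vanish or change sign and still be labelled the same, so this label says little about the medians. The promoter share was the same if it lay within the interval of the main share. A single gene was the same if its sign and call held, whatever the size of the move. No member was called for frequency or age under any of them, and DESeq2 called 3 genes for frequency where limma called 0. Of the 100 members, 56 remained by Spearman's rho, 57 without 40Hz replicates 1 to 3, and 53 (without 40Hz replicate 7) to 95 when each mouse was left out in turn. Leaving out each mouse moved the median frequency difference between -0.14 and -0.04 and the median age difference between -0.15 and -0.03. 10 of 416 single-gene values near 0 changed sign, and the cause was not tested. Leaving out each mouse in turn, the frequency difference of Trib1 ran from -0.016 to 0.14, of Tcaf1 from -0.0037 to 0.14, of Kdm6b from -0.046 to 0.14 and of E2f6 from -0.022 to 0.18. The age difference of Tollip ran from -0.035 (without 40Hz replicate 7) to 0.25, and was -0.029 with the replicate block. Replicate numbers do not pair mice: of 7 same-number pairs, 1 correlated above 0.1 (range -0.23 to 0.15), and 2 correlated best with their own number. With the replicate block the median frequency difference was -0.10, the median age difference turned from -0.07 to 0.02, a move within the spread between mice, and 0 members were called. Low members such as Stk40 and Pim1 rest on few reads in the shallowest library.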
